A study of Mus musculus with 8 samples.

Results

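The wild-type (WT) arm of a mouse RNA-seq series was examined here on its own, as the baseline transcriptome of peritoneal macrophages (pMacs) with CD1d intact. Its members were chosen by genotype label alone and are 4 of the 8 libraries, numbered 1, 2, 3 and 5 in the labels, each described as a separate biological replicate. The other 4 libraries came from CD1d-deficient mice and were not analysed here. The study asked how CD1d, a molecule that presents lipids to T cells, shapes macrophage responses to Toll-like receptor ligands. WT mice were C57BL/6, age- and sex-matched and between 8 and 16 weeks old, and are also called littermate controls in the study. The cells were washed from the peritoneal cavity. No treatment was listed for them, and the study's methods describe no stimulation of the cells used for RNA-seq. The study describes the transcriptomes as those of unstimulated cells, which is the sense of the word resting here, and the levels of inducible genes are given below beside it. Bead enrichment for F4/80 is described there for other assays, and the way the sequenced cells were purified is not spelled out.

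The peritoneal cavity of an unchallenged mouse holds a dense population of large, long-lived macrophages and a smaller one of monocyte-derived macrophages and dendritic cells, together with many B cells. Large peritoneal macrophages depend on CSF1 signalling and on the general myeloid factors PU.1 and C/EBPβ. Their tissue-specific programme is set by the zinc-finger factor GATA6, which retinoic acid made in the surrounding tissue induces, and they are known for clearing dying cells and for supplying coagulation factors and complement.

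Levels are given as TPM, a read count divided by transcript length and scaled to the same total in each library, which allows genes of different length to be set side by side. Values listed in fours follow mice 1, 2, 3 and 5. The libraries held between 13875116 (mouse 3) and 19059432 (mouse 1) estimated read counts in genes. A gene was counted as detected when it reached 1 TPM in all 4 mice. The 4 libraries listed 48795 genes, of which 11049 (22.6%) were detected, 9925 of them protein-coding. The share among protein-coding genes alone was larger, at 9925 of 21772. The gene lists below hold mostly protein-coding genes, so 22.6% is a low yardstick for them. A count of 3 reads, taken as the limit that no read allows, corresponded for a transcript of 1 kb to between 0.289 TPM in mouse 1 and 0.383 TPM in mouse 3, counting error only. Across the detected genes, pairs of mice had rank correlations of 0.936 (mice 1 and 3) to 0.977 (mice 2 and 5). These correlations are across genes, which share their annotation and scaling and are not replicates. No 2 libraries looked like a library deposited again, since a chi-square of their counts over genes gave at least 22.97 per degree of freedom. This check looks for duplicates and says nothing about how well mice agreed.

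The levels of detected genes spanned more than 4 orders of magnitude and were concentrated in few genes. Of all genes, 6218 reached 10 TPM in every mouse, 879 reached 100 TPM, 82 reached 1000 TPM and 9 reached 10000 TPM. The 10 highest genes held 30.8% ± 3.71 of all TPM (SD, n = 4 mice), and the 100 highest held 50.05% ± 2.48. When nuclear protein-coding genes were taken alone, the 10 highest held 23.5% ± 1.098 and the 100 highest 42.0% ± 0.776. Transcripts of the 100 highest nuclear protein-coding genes were short, with a median length of 939 bases, against 2365 bases over all 9914 detected genes of that class. Because TPM divides by length, the same reads gave another picture on the CPM scale, which corrects counts for depth but not for length, where 324 genes were needed to reach 50% of the total.

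**Figure D1:**
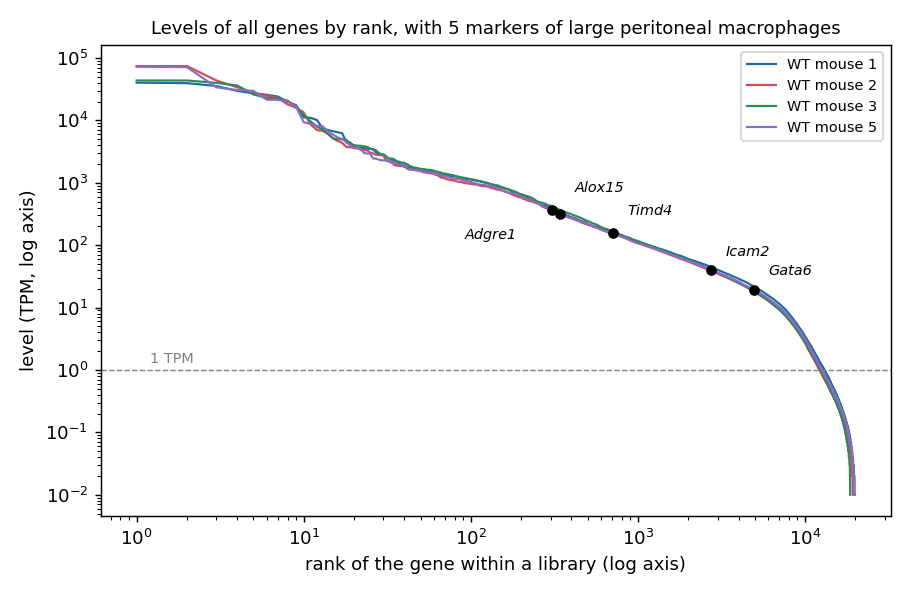
Level (TPM, log axis) of each gene with reads, plotted against its rank within its library (log axis), with 1 line for each of the 4 WT mice; black points mark 5 markers of large peritoneal macrophages at their geometric mean and rank. The 4 lines run close together, and the markers span ranks 304 (*Adgre1*) to 4943 (*Gata6*), all above the dashed line at 1 TPM.

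The 5 markers of large peritoneal macrophages were all detected, and they sat at very different depths of this curve. *Adgre1*, which encodes the F4/80 antigen, measured 372, 318, 430.2 and 341 TPM and ranked 304. *Alox15*, a lipoxygenase that oxygenates polyunsaturated fatty acids, measured 323, 356, 227 and 399 TPM and ranked 343. *Timd4*, the phosphatidylserine receptor TIM-4 used to bind dying cells, measured 144, 145, 134 and 209 TPM and ranked 709. *Timd4* lay above 93.6% of detected genes and the other 2 higher still, and the ranges of *Adgre1* and *Alox15* overlapped. *Icam2*, the adhesion molecule CD102 used to gate these cells in flow cytometry, measured 36.1, 48.6, 27.1 and 54.6 TPM and ranked 2746. *Gata6* measured 29.01, 18.5, 10.7 and 24.02 TPM and ranked 4943, above 55.3% of detected genes. The gene for the identity-setting factor thus stood near the middle of the detected range, at 20.5 ± 7.87 TPM (mean ± SD, n = 4 mice), highest in mouse 1 and lowest in mouse 3. Ranked by CPM instead, *Adgre1* stood at 135 and *Icam2* at 4752.

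*Gata6* was the only one of its family of 6 zinc-finger factors above 1 TPM. *Gata2*, a mast cell and progenitor factor, measured 0.37, 0.2, 0.47 and 0.66 TPM, and *Gata3*, a T cell factor, measured 0.17, 0.5, 0.04 and 0.35 TPM. *Gata1* had reads in mouse 2 alone, *Gata4* in mice 1 and 3, and *Gata5* in none. *Gata6* exceeded each of the other 5 in 4 of 4 mice. With the other genes at or near 0 this order is a description, and no p is drawn from it.

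All 18 genes of the broader large peritoneal macrophage list were detected, against 22.6% of all listed genes. This list, like the others, was chosen with earlier results of these data known, so the count is a description and no test of identity. The top of the list was held by secreted proteins. *Thbs1*, the matrix glycoprotein thrombospondin-1, measured 10146, 13415, 12319 and 9355 TPM, and *Prg4*, the lubricant proteoglycan lubricin, measured 3484, 2814, 2854 and 2991 TPM. Their ranges did not overlap, nor did that of *Prg4* and the next gene, *Cxcl13*. *Cxcl13*, the chemokine that draws B cells, measured 607, 593, 1369 and 755 TPM and was highest in mouse 3. The soluble lectin gene *Fcna*, ficolin A, measured 707, 623, 789 and 657 TPM. Coagulation factor X (*F10*) measured 370.4, 505, 511 and 662 TPM and factor V (*F5*) 272, 216, 249.7 and 249 TPM, which placed both above *Timd4*. *Ltbp1*, which holds TGF-β in latent form, measured 355, 258, 241 and 263 TPM, and *Tgfb2* itself 20.8, 10.7, 15.7 and 15.5 TPM. *Serpinb2*, an inhibitor of plasminogen activators, was the least even of the 18 at 294, 1469, 540.4 and 301 TPM, with mouse 2 far above the other 3. The adhesion receptor *Selp* measured 79.6, 76.1, 62.5 and 51.3 TPM and the complement receptor *Vsig4* 93.6, 58.1, 64.4 and 82.5 TPM. The list ended with *Aspa*, aspartoacylase, at 4.30, 4.55, 3.21 and 3.72 TPM and *Garnl3* at 4.20, 4.86, 2.37 and 3.04 TPM. Of the 17 neighbouring pairs in the order of this list, 12 had overlapping ranges, so the order is firm only in its broad steps.

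Transcripts of the highest protein-coding genes encoded secreted acute-phase, iron-storage, lipid-carrier and antimicrobial proteins. *Saa3*, an acute-phase apolipoprotein that macrophages make, was highest by geometric mean at 27176, 43734, 39947 and 29786 TPM. The heavy and light ferritin chains, which store iron, measured 35582, 33983, 36335 and 30745 TPM for *Fth1* and 24117, 18082, 22967 and 20372 TPM for *Ftl1*. *Apoe*, the lipid carrier of secreted lipoprotein particles, measured 29681, 24918, 22614 and 21529 TPM. *Saa3* and *Fth1* overlapped in range, and *Saa3* varied 1.61-fold between mice against 1.18-fold for *Fth1*. *Lyz2*, the lysozyme of myeloid cells, measured 25745, 23055, 20840.4 and 21417 TPM. These 5 were the only protein-coding genes above 10000 TPM in every mouse, and the order of *Apoe*, *Lyz2* and *Ftl1* was not separated beyond their spread.

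The start of *Saa3* is shown as the reference promoter of the highest protein-coding gene. The window of 300 bases, 250 before the start site and 50 after it, comes from RefSeq on GRCm38.p6 at chr7:46715627-46715926 on the minus strand. Capitals mark a match to TTNNGCAA, letters that C/EBP factors are known to bind, searched on both strands. The match begins 99 bases before the start site, and 10.8% of all 32851 windows hold 1 or more such matches.
Saa3: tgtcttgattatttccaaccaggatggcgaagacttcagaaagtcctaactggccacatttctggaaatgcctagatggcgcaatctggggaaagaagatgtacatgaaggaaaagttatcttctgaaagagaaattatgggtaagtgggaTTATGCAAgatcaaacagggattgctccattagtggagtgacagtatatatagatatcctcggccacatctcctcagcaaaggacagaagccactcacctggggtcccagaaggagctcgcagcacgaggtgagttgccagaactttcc

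Below these came matrix and protease-control proteins and a chemokine. *Fn1*, fibronectin, measured 10991, 6778, 5132 and 8798 TPM, and *Slpi*, a secreted inhibitor of leukocyte proteases, measured 7519, 6045, 9634 and 6541 TPM. *Ccl24*, the eosinophil-attracting chemokine eotaxin-2, measured 6705, 3340.2, 2442 and 5307 TPM. *Fn1* and *Ccl24* ran in the same order, highest in mouse 1, then 5, then 2, then 3. *Pf4*, the chemokine CXCL4, measured 3535, 3335, 3021 and 2360.4 TPM and *Trf*, the iron carrier transferrin, 4423, 3760.4, 3543 and 3569.9 TPM. The antioxidant enzyme *Prdx1* measured 6977, 4665, 6087 and 5047 TPM, heme oxygenase *Hmox1* 3592, 1920.5, 3951 and 2291 TPM and the autophagy receptor *Sqstm1* 2024, 1459, 3348 and 1822 TPM. *Hmox1* and *Sqstm1* were both highest in mouse 3 and lowest in mouse 2. The most even of the 30 highest nuclear protein-coding genes was *Cybb*, the catalytic subunit of the phagocyte NADPH oxidase, at 1904, 1803, 1987 and 1895 TPM, followed by *Ecm1*, an extracellular matrix protein, at 1757, 1531, 1671 and 1619 TPM.

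**Figure D2:**
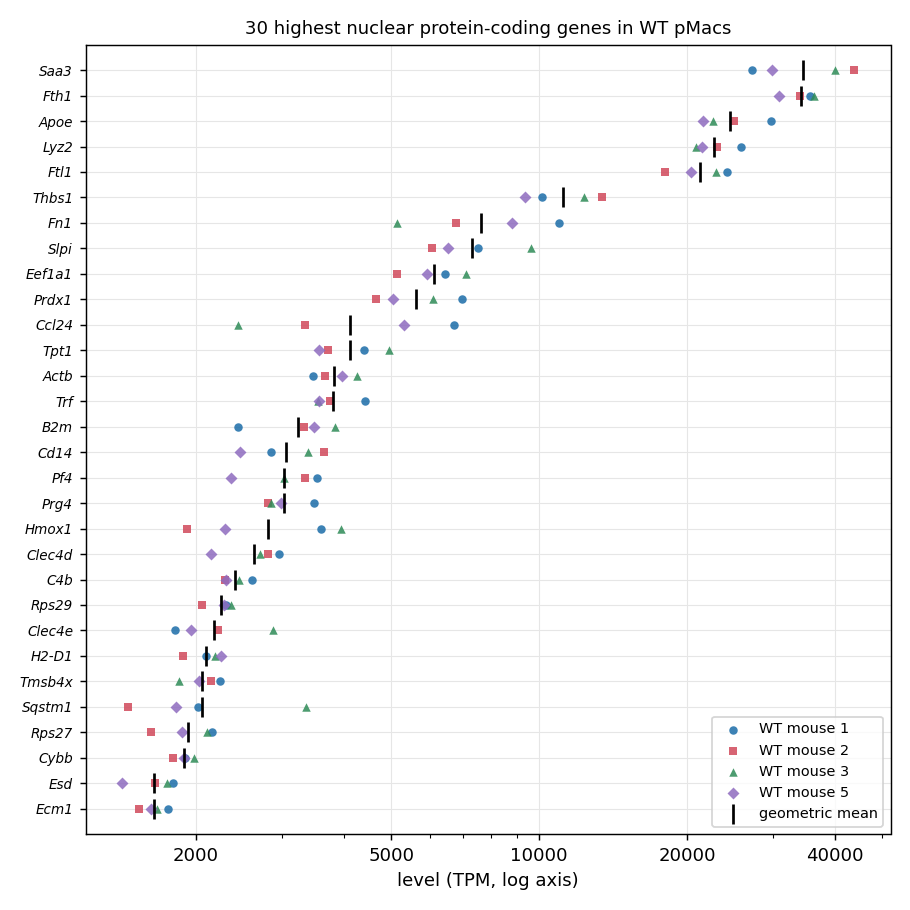
Level (TPM, log axis) of the 30 highest nuclear protein-coding genes in each of the 4 WT mice (coloured symbols), with the geometric mean as a black bar. *Saa3* and *Fth1* lead at geometric means of 34485 and 34092 TPM, and the points of neighbouring genes overlap almost throughout.

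Lysozyme was made almost entirely from 1 of 2 neighbouring genes. *Lyz1*, the lysozyme of Paneth cells, measured 661, 589.8, 757 and 663 TPM, 27.5 to 39.1 times below *Lyz2* in 4 of 4 mice (exact two-sided sign-flip test, p = 0.125, the smallest that 4 mice allow, and 0.138 after Benjamini-Hochberg adjustment over the 11 gene pairs tested in this way). The longest alignment of the 2 transcripts was 95.8% identical, so some reads could have been divided between them by estimation. The 3 chains of complement C1q, the recognition unit of the classical pathway, stood close together: *C1qb* at 1152, 1029.8, 1019 and 1223 TPM, *C1qc* at 924, 823, 989.6 and 1062 TPM and *C1qa* at 763, 748, 966 and 937 TPM. The order C1qb, C1qc, C1qa held within 4 of 4 mice, with ratios of *C1qb* to *C1qa* between 1.06 and 1.51. The complement gene *C4b* measured 2603, 2296, 2448 and 2303 TPM.

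Among the 30 highest genes of any kind, 21 were protein-coding and 9 were not. *Rn7s1* and *Rn7s2*, copies of the 7SL RNA of the signal recognition particle, led the whole list at 40295, 74323, 43660.2 and 72421 TPM and 39599, 74323, 43660.2 and 71514 TPM. Their annotated transcripts are 100% identical over 300 bases, so the division of reads between them is arbitrary and only their sum is informative. RNAs of their class (miscellaneous RNA) held 11.5% ± 3.64 of TPM but 1.65% ± 0.599 of read counts, and were about equally high in mice 2 and 5 and lower in mice 1 and 3. *Rpph1*, the RNA of ribonuclease P, followed the same split at 3769.9, 7009, 4869 and 8059 TPM. The gene without a GENCODE M21 entry, ENSMUSG00000110451, measured 19859.5, 28109, 26021 and 33929 TPM. *Gm26917* (lincRNA), *CT010467.1* (rRNA) and *Gm42418* (lincRNA) lie together on chromosome 17, at GRCm38 positions 39843013 to 39848827, and the span of *Gm42418* falls within that of *CT010467.1*, so reads there cannot be assigned to 1 of the 2 with certainty. *Gm26917* was the most even of the non-coding leaders at 17577, 15944, 16367 and 16504 TPM. Protein-coding genes as a class held 76.2% ± 3.79 of TPM and 90.9% ± 0.417 of counts.

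Genes of the mitochondrial genome held 1.17% ± 0.157 of TPM (SD, n = 4), led by *mt-Co1*, a cytochrome c oxidase subunit, at 3598, 3045, 4011 and 2946 TPM. Nuclear copies of mitochondrial genes took part of this signal. *Gm28661* measured 3635, 2968, 3919.7 and 2947 TPM and is 100% identical to *mt-Co2* over 681 bases, and *Gm28437* measured 3079, 2763, 3758 and 2448 TPM and is 100% identical to *mt-Co3* over 783 bases. With these and *Gm29216* and *Gm10925* added, the share was 2.14%. Of 86 cytosolic ribosomal protein genes, 83 were detected, against 22.6% of all genes, and together they held 6.93% ± 0.564 of TPM. They are short genes, and on the CPM scale they held 2.60%.

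Receptors that define the lineage were detected for 49 of 56 listed genes, against 22.6% of all genes. *Cd14*, the lipopolysaccharide co-receptor, was the highest at 2851, 3646, 3381 and 2457 TPM, and its range lay above that of every other listed receptor. *Tyrobp*, the signalling adaptor DAP12, measured 1169, 969, 1007 and 1153 TPM. *Marco*, a scavenger receptor for bacteria, measured 942, 993, 1067 and 1269 TPM, and *Cd36*, a fatty acid and lipoprotein scavenger receptor, 1523, 876, 906 and 974 TPM. *Csf1r*, the receptor on which macrophage survival depends, measured 1146, 975, 824 and 943 TPM and ranked 116. These 4 could not be ordered, since their ranges overlapped. The β-glucan receptor *Clec7a* measured 1057, 729, 792 and 983 TPM. The chains of the CR3 integrin measured 773, 628, 659 and 696 TPM for *Itgam* (CD11b) and 911, 615, 703 and 826 TPM for *Itgb2* (CD18), while *Itgax* (CD11c), a dendritic cell integrin, measured 7.52, 7.69, 10.5 and 19.6 TPM. The *Clec4d* and *Clec4e* genes, a pair of C-type lectin receptors that sense mycobacterial glycolipid, measured 2962, 2802, 2698 and 2154 TPM and 1817, 2218, 2878 and 1953 TPM.

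The Toll-like receptor for lipopolysaccharide stood far below its co-receptor *Cd14*. *Tlr4* measured 77.2, 85.8, 100.5 and 65.5 TPM and its partner *Ly96* (MD-2) 28.2, 28.9, 39.4 and 21.9 TPM, while *Tlr2* measured 511, 542, 684 and 539.6 TPM. Of the TAM receptor kinases, which bind phosphatidylserine through bridging proteins, *Axl* measured 41.4, 55.6, 101 and 95.3 TPM, *Mertk* 35.2, 25.6, 34.9 and 34.1 TPM and *Tyro3* 0.52, 0.75, 0.33 and 1.42 TPM. *Axl* was higher in mice 3 and 5 than in mice 1 and 2, and *Tyro3* reached 1 TPM in mouse 5 alone. The mannose receptor *Mrc1* measured 3.74, 2.69, 5.66 and 3.24 TPM, the haemoglobin receptor *Cd163* 10.8, 8.47, 5.66 and 6.63 TPM and *Lyve1*, a hyaluronan receptor of perivascular macrophages, 4.12, 1.24, 3.68 and 1.51 TPM. Listed receptors that failed the detection rule were *Ccr2*, *Tyro3*, *P2ry12*, *Kit*, *Cx3cr1*, *Flt3* and *Clec4f*. *Ccr2*, the monocyte chemokine receptor, measured 0.8, 2, 3.08 and 3.33 TPM and *Cx3cr1*, the fractalkine receptor, 0.66, 0.22, 0.07 and 0.23 TPM, and *Clec4f*, a Kupffer cell lectin, had no read in any mouse.

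Fc receptors for IgG differed in how even they were between mice. *Fcgr3* measured 1169.9, 1029, 747 and 910.4 TPM, the shared signalling chain *Fcer1g* 507, 648, 639 and 593 TPM and the inhibitory *Fcgr2b* 269.9, 319, 434 and 309.8 TPM. The high-affinity receptor *Fcgr1* measured 3.65, 87.7, 139.6 and 21.8 TPM. *Fcgr1* thus ranged from near the bottom of the detected genes in mouse 1 to well above 100 TPM in mouse 3. *Siglec1*, the sialic acid receptor CD169, followed the same order of mice at 2.93, 28.8, 34.03 and 13.3 TPM. Geometric means of the detected receptors ran from 3048 TPM for *Cd14* to 2.41 TPM for *Lyve1*. Of the 48 neighbouring pairs among the detected receptors, 44 had overlapping ranges.

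Of 72 listed transcription factors, 58 were detected, against 22.6% of all genes. *Cebpb* (C/EBPβ), a myeloid and inflammatory factor, was highest by geometric mean at 571, 549, 634 and 533 TPM. Its range lay above that of the next gene, *Nfkb1*, but within that of *Irf7*, which exceeded it in mouse 3. *Nfkb1*, a subunit gene of NF-κB, measured 365, 289, 343 and 326 TPM. *Spi1*, which encodes PU.1, measured 361, 336, 289 and 335 TPM, *Nfe2l2*, the antioxidant regulator NRF2, 299.9, 306, 375 and 339 TPM, and *Zeb2*, a repressor that upholds macrophage identity, 339, 336, 330.2 and 309.8 TPM. Their order among themselves was not resolved. Interferon regulatory factors differed in evenness. *Irf5* was even at 133, 132, 129.95 and 135 TPM, and *Irf8* measured 99.3, 53.9, 64.7 and 67.2 TPM. *Irf7* measured 73.4, 502, 748 and 285 TPM, lowest in mouse 1 and highest in mouse 3.

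Geometric means of the detected factors ran from 570.4 TPM for *Cebpb* to 1.28 TPM for *Id1*, an inhibitor of helix-loop-helix factors. *Bhlhe40* and *Bhlhe41*, basic helix-loop-helix repressors linked to macrophage self-renewal, measured 141, 74.5, 92.8 and 122 TPM and 114, 67.5, 93.2 and 93.4 TPM. *Cebpa* measured 278, 109.8, 145 and 157 TPM and was highest in mouse 1. Factors that mark other macrophages were low: *Spic*, of red pulp macrophages, measured 4.35, 9.47, 21.9 and 6.51 TPM, *Pparg*, of alveolar macrophages, 5.22, 2.26, 3.29 and 3.46 TPM, and *Nr1h3* (LXRα) 7.11, 7.27, 9.98 and 8.57 TPM, against 97.6, 85.9, 79.2 and 101 TPM for its relative *Nr1h2* (LXRβ). *Spic* exceeded *Gata6* in mouse 3 alone, where *Gata6* measured 10.7 TPM. *Sall1*, the microglial factor, had no read. The 14 factors that failed the detection rule were *Ppara*, *Batf3*, *Foxp3*, *Rarb*, *Gata2*, *Rxrg*, *Tbx21*, *Gata3*, *Myb*, *Gata4*, *Gata1*, *Sall3*, *Gata5* and *Sall1*. *Pax5*, a B cell factor, was detected at 8.44, 2.59, 7.47 and 11.4 TPM and appears again with the B cell genes.

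**Figure D3:**
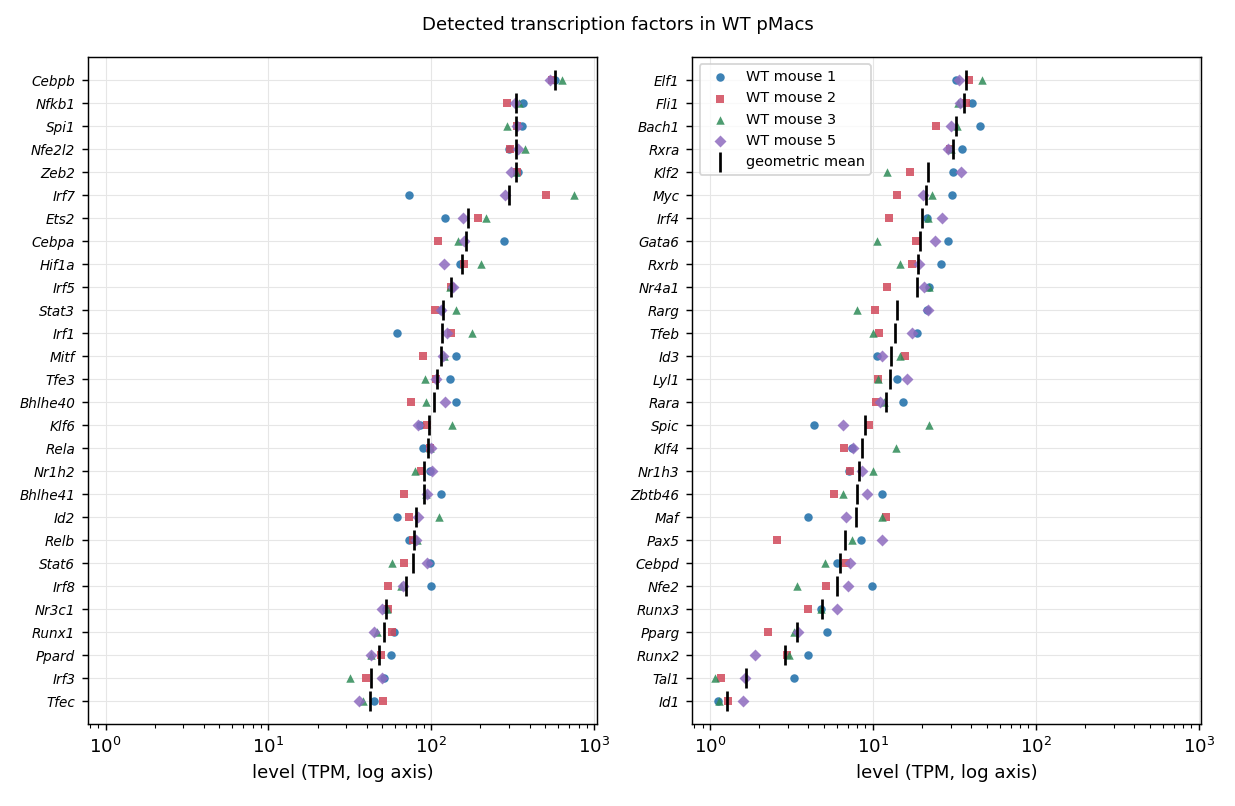
Level (TPM, log axis) of 56 of the 58 detected transcription factors of the list, in order of geometric mean (black bar) from upper left to lower right, with a coloured symbol for each of the 4 WT mice. *Irf7* spreads widest in the left panel, from 73.4 to 748 TPM, while *Gata6* lies in the right panel at 10.7 to 29.0 TPM.

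The retinoid pathway, which supplies the signal that induces *Gata6*, was detected for 10 of 22 listed genes, against 22.6% of all genes. This was no higher than the share of protein-coding genes, 9925 of 21772. The nuclear receptors that bind retinoic acid and their partners were led by *Rxra* at 35.3, 29.8, 29.99 and 28.98 TPM and *Rxrb* at 26.2, 17.4, 14.6 and 19.2 TPM. *Rarg* measured 21.6, 10.3, 8.02 and 21.7 TPM and *Rara* 15.2, 10.4, 11.6 and 11.01 TPM. *Rara* was the higher in mice 2 and 3 and *Rarg* in mice 1 and 5, and the exact two-sided sign-flip test gave p = 0.75. *Rarb* and *Rxrg* stayed under 1 TPM in all mice. Of the enzymes that make retinoic acid, *Aldh1a2* measured 9.39, 9.10, 12.1 and 12.8 TPM, *Aldh1a3* 0.11, 0.14, 0.51 and 0.06 TPM and *Aldh1a1* had no read. *Tgm2*, a transglutaminase that retinoic acid is known to induce, measured 358, 245, 364 and 292 TPM, and the retinaldehyde reductase *Dhrs3* 80.9, 39.8, 45.8 and 69.6 TPM. The retinoic acid hydroxylases *Cyp26a1* and *Cyp26b1* and the membrane transporter *Stra6* were not detected.

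Genes that macrophages are known to induce on activation were abundant in part. Of 37 listed cytokines, chemokines and activation genes, 28 were detected, against 22.6% of all genes. Beside *Saa3* and *Ccl24*, *Acod1*, the enzyme that makes itaconate, measured 822, 1101, 1622 and 1151 TPM. The neutrophil chemokine *Cxcl2* measured 617, 935, 901 and 658 TPM, and the inflammatory cytokine *Il1b* 258, 759, 409.8 and 413 TPM. All 3, like *Saa3*, were lowest in mouse 1. *Arg1*, arginase, measured 604, 468, 491 and 233 TPM, *Retnla* 266, 505, 580.01 and 493 TPM and *Tgfb1* 509, 288, 397 and 472 TPM. *Tnf* measured 53.7, 55.2, 92.4 and 84.1 TPM and *Il6* 24.9, 79.9, 82.4 and 50.2 TPM. *Retnla*, *Tnf* and *Il6* were again lowest in mouse 1, whereas *Arg1* and *Ccl24* were highest there. *Nos2*, inducible nitric oxide synthase, measured 0.32, 1.37, 5.64 and 1.15 TPM, *Il10* 2.61, 1.88, 9.24 and 3.51 TPM and *Il12b* 0, 0, 0.39 and 0.47 TPM. *Ifnb1* had reads in mouse 3 alone, at 0.34 TPM, and *Ifng* in mouse 5 alone, at 0.09 TPM. *Csf2*, *Cxcl9*, *Il12a*, *Il12b*, *Il23a*, *Ifnb1* and *Ifng* all stayed under 1 TPM in every mouse.

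Of 20 immediate early and heat-shock genes, which can rise within minutes of handling, 19 were detected, against 22.6% of all genes. *Atf3* measured 389.9, 201, 439 and 249 TPM, *Junb* 299, 259.8, 278 and 301 TPM and *Zfp36*, which destabilises cytokine mRNAs, 205, 267, 322 and 232 TPM. *Fos* measured 4.75, 5.17, 3.80 and 3.65 TPM, *Egr1* 10.5, 4.82, 13.5 and 9.82 TPM and *Fosb* 0.37, 0.28, 0.34 and 0.32 TPM. *Fosl2*, another FOS family gene, measured 107, 105, 115 and 98.6 TPM. *Fos* and *Fosb* thus stood far below *Junb* in all 4 mice, and *Fosl2* lay between *Fos* and *Junb*. The heat-shock genes *Hspa1a* and *Hspa1b* measured 28.5, 19.6, 11.4 and 30.6 TPM and 73.7, 33.1, 17.9 and 55.7 TPM, were both lowest in mouse 3, and are 99.1% identical over their longest alignment.

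Markers of other cells were then read against the same rule, which 22.6% of all listed genes and 9925 of 21772 protein-coding genes met. Lists for mesothelial cells (0 of 8), fibroblasts (0 of 6) and adipocytes (0 of 6) had no detected member, and the summed level of each list stayed under 1 TPM in every mouse. *Msln*, *Wt1*, *Krt19*, *Adipoq* and *Lep* had no read. Endothelial cells had 1 of 6, *Pecam1*, an adhesion molecule that leukocytes also carry, at 4.71, 5.92, 3.97 and 4.94 TPM. Neutrophil markers had 2 of 12, *Csf3r* at 102, 150.1, 162 and 129 TPM and *S100a8* at 13.9, 11.9, 10.5 and 11.4 TPM, while the partner of *S100a8*, *S100a9*, measured 0.2, 0, 0 and 0.24 TPM and *Ly6g* had no read. Eosinophil markers had 0 of 6, with *Siglecf* at 0.98, 1.57, 1.55 and 1.61 TPM and no read for *Prg2*. Mast cell markers had 4 of 10, of which *Hdc*, histidine decarboxylase, led at 15.3, 60.8, 75.1 and 48.8 TPM and the tryptase and chymase genes *Tpsb2*, *Cma1* and *Mcpt4* stayed under 7 TPM, with no read for *Ms4a2*. T and NK cell markers had 2 of 16, *Cd2* at 11.8, 4.17, 7.65 and 11.2 TPM and *Lck* at 3.42, 3.68, 3.44 and 4.96 TPM, with *Cd3e* at 0.51, 0.44, 0.76 and 0.93 TPM. Erythroid and platelet markers had 1 of 11, the platelet chemokine *Ppbp* at 2.25, 2.30, 3.09 and 1.78 TPM. Haemoglobin genes were at 0 in mouse 2, with *Hbb-bs* at 3.28, 0, 5.24 and 4.45 TPM.

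B cell genes were nearly all present. Of 12 listed, 11 were detected, against 22.6% of all genes, and the last, *Ebf1*, missed the rule only in mouse 2. *Ighm*, the IgM heavy chain, measured 331, 108, 255 and 317 TPM and *Igkc*, the κ light chain, 236, 86.3, 264 and 256 TPM. The antigen-receptor chains *Cd79a* and *Cd79b* measured 59.6, 18.1, 34.9 and 57.01 TPM and 56.3, 17.5, 31.5 and 50.7 TPM. The list summed to 797, 274, 669 and 802 TPM, and all 12 genes were lowest in mouse 2. Whether mouse 2 held fewer B cells or less B cell RNA per cell cannot be told apart in bulk RNA.

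Genes of small peritoneal macrophages and dendritic cells were detected for 15 of 21, against 22.6% of all genes. The MHC class II genes, which present peptides and which B cells also carry, were among the highest, with the invariant chain *Cd74* at 814, 653, 1129 and 1465 TPM and *H2-Aa* at 345, 249, 481 and 551 TPM. Both were lowest in mouse 2, as the B cell genes were, and highest in mouse 5. *Retnla* (given above), the next member below *Cd74* by geometric mean, was lowest in mouse 1 instead. The part of B cells in the MHC class II levels was not tested. *Irf4*, a factor of small peritoneal macrophages and of lymphocytes, measured 21.4, 12.5, 21.8 and 26.7 TPM, *Cd209a* 5.46, 10.6, 16.9 and 10.95 TPM and *Clec10a* 5.71, 1.91, 6.35 and 2.36 TPM. The cross-presenting dendritic cell genes *Xcr1* and *Clec9a* measured 0.34, 0.32, 0.34 and 0.34 TPM and 0.29, 0.31, 0.78 and 0.8 TPM, and *Flt3* 0.1, 0.06, 0.13 and 0.17 TPM.

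Genes typical of macrophages in other tissues were detected for 10 of 24, against 22.6% of all genes. This was no higher than the share of protein-coding genes, 9925 of 21772. *Marco* (given above), *Acp5*, the acid phosphatase of osteoclasts, at 163, 241, 406 and 272 TPM, and *Cd5l*, a secreted protein of several tissue macrophages, at 272, 163, 249 and 289 TPM were the highest. The other 7 detected members, *Treml4*, *Spic*, *Cd209b*, *Dcstamp*, *Pparg*, *Vcam1* and *Tmem119*, were at most 21.9 TPM in any mouse. *Siglecf* and *Car4* of alveolar macrophages and *P2ry12*, *Olfml3* and *Gpr34* of microglia missed the rule, and *Cd207* of Langerhans cells and *Clec4f* of Kupffer cells had no read.

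**Figure D4:**
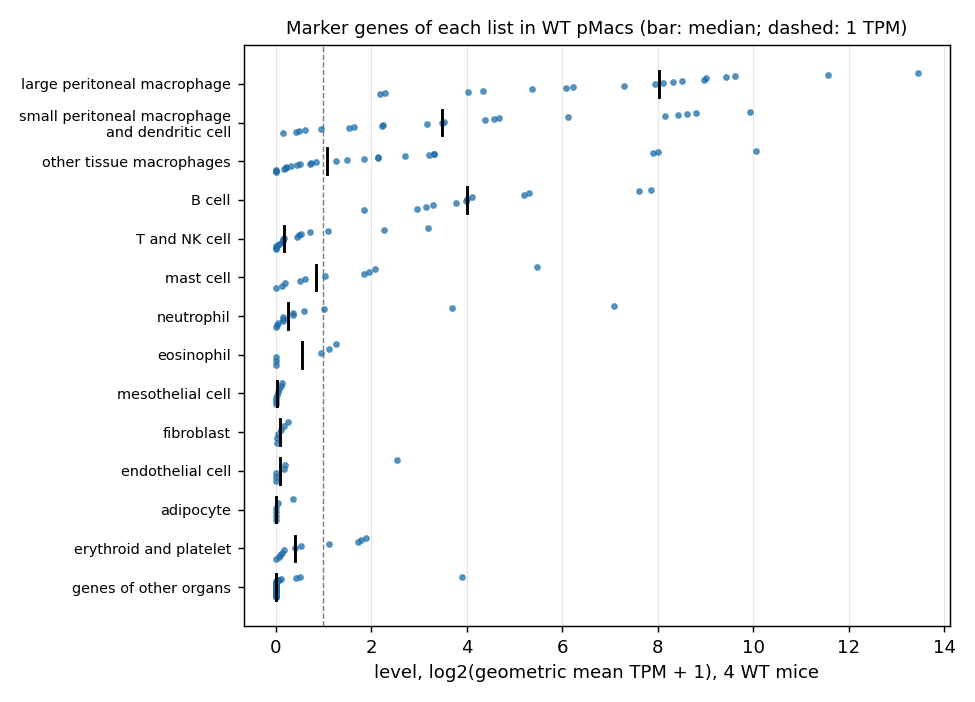
Level, log2(geometric mean TPM + 1) over 4 WT mice, of each gene (point) in 14 marker lists, with the list's median as a black bar and 1 TPM as a dashed line. The large peritoneal macrophage list has its median at 261 TPM, the B cell list at 15.0 TPM, and the mesothelial, fibroblast, adipocyte and other-organ lists sit near 0 except for *Mbp*.

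No read at all was seen in any of the 4 mice for 25408 of 48795 genes (52.1%), among them 6521 of 21772 protein-coding genes (29.95%). Several large gene families were wholly or mostly without reads. Olfactory receptor genes (*Olfr*) had no read for 1282 of 1330, and none met the detection rule in all 4 mice. The family summed to 5.83, 18.2, 37.6 and 10.6 TPM, and its highest single value in a mouse was 29.9 TPM. Vomeronasal receptor genes had no read for 486 of 509, and the 1 detected, *Vmn2r26*, measured 15.01, 10.7, 13.9 and 9.79 TPM. Keratin-associated protein genes were silent for 57 of 57, trace amine receptors for 16 of 16 and β-defensins for 41 of 43. *Hox* genes, the positional regulators of the body axis, had no read for 21 of 39, and the 1 detected, *Hoxb4*, measured 1.5, 1.21, 1.11 and 1.31 TPM. Of 28 genes that define other organs, such as albumin (*Alb*), insulin (*Ins1*, *Ins2*) and surfactant protein C (*Sftpc*), 19 had no read. The 1 detected, *Mbp*, measured 19.5, 13.7, 9.35 and 15.1 TPM, and its locus also encodes Golli proteins, which haematopoietic cells express. *Xist*, the non-coding RNA of the inactive X chromosome, measured 78.1, 58.3, 89.8 and 67.5 TPM, and *Ddx3y*, *Eif2s3y*, *Kdm5d* and *Uty* on the Y chromosome did not exceed 0.04 TPM in any mouse, the pattern of female mice.

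The spread between mice was small for most genes and large for few. The SD of log2(TPM + 1) over the 4 mice had a median of 0.25 over the 11049 detected genes, and the highest mouse exceeded the lowest by a median of 1.53-fold. The biological coefficient of variation, estimated from the counts with edgeR, was 0.229. The median SD was 0.28 for genes of 1 to 3 TPM and 0.18 for those of 1000 TPM and more. On log2 counts without a pseudocount, counting alone would give 0.22 and 0.01. At 1 to 3 TPM the pseudocount of 1 shrinks the SD, so 0.28 and 0.22 are not on the same scale. An SD above 1 was reached by 162 genes (1.47%). Of these, 119 were highest in mouse 3 and 112 were lowest in mouse 1. Without mouse 1 the number was 89 and without mouse 5 it was 244. Reference genes often used to scale expression were detected for 12 of 12, against 22.6% of all genes, and were mostly even. *Ywhaz* measured 423, 380.2, 426 and 369 TPM and *Ppia* 822, 759, 723 and 782 TPM, while *Gapdh* measured 656, 510.2, 388 and 582 TPM and *Hprt* 123, 68.6, 76.3 and 75.1 TPM, with *Hprt* high in mouse 1 alone.

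The most even genes came from many functions. The ranking took the 6064 annotated genes at 10 TPM or more in all mice, with pseudogenes left out. The 10 with the smallest SD varied by at most 1.04-fold in TPM. *Atg3*, an enzyme of autophagosome formation, measured 44.3, 43.8, 43.7 and 43.2 TPM, *Hdac1*, a histone deacetylase, 40.3, 39.1, 39.3 and 39.9 TPM and *Psmb6*, a proteasome subunit, 160.1, 161, 157 and 156 TPM. *Rpl36*, a ribosomal protein, measured 626, 617, 628 and 638 TPM and *Clic1*, a chloride channel protein, 190.3, 184, 185 and 188 TPM. The others were *Mcrip1*, *Dyrk2*, *Susd6*, *Ankhd1* and *Lrrc41*. They were picked for evenness, so their values describe the lower end of the spread and test nothing. This evenness holds on the TPM scale. The TMM scaling factors of edgeR ran from 0.926 in mouse 3 to 1.08 in mouse 1, a wider range than that of these genes. The ranking was not repeated with them, so another scaling could name other genes.

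At the other end, the 20 genes with the largest SD were, but for *Snord21*, genes known to respond to interferon. *Cxcl10*, a chemokine for activated T cells, measured 11.2, 242, 864 and 60 TPM, a 77.1-fold range. *Rsad2* (viperin), an antiviral enzyme, measured 29.5, 396, 1662 and 224 TPM. *Ifit1*, which binds foreign RNA caps, measured 22.7, 273, 603 and 154 TPM, and *Isg15*, a ubiquitin-like modifier, 51.7, 506, 767 and 292 TPM. In each of these 4 the mice stood in the order 1, 5, 2, 3 from lowest to highest. The other members with this order or nearly so were *Ifit3*, *Oasl1*, *Slfn4*, *Zbp1*, *Ifi209*, *Tgtp2*, *Usp18*, *Gbp6*, *Irf7*, *Phf11b*, *Phf11d*, *Ifi47*, *Gbp5*, *Oasl2* and *Oas3*. The order 1, 5, 2, 3 was found in 18 of the 20, and *Gbp5* differed only in that mouse 5 stood just above mouse 2. The exception was *Snord21*, a small nucleolar RNA of 94 bases, at 31.7, 102, 16.4 and 10.5 TPM. Its levels rest on expected counts of only 5.4, 15.7, 2.09 and 1.49, which lie under the limit of 3 reads in mice 3 and 5. Its spread can therefore not be set apart from counting error. The least variable of the 20, *Oas3*, which senses double-stranded RNA, still had a 7.34-fold range. The 20 genes summed to 609.9, 5015, 9731 and 2908 TPM, a 16.0-fold range, which was 3.35-fold without mouse 1 and 8.22-fold without mouse 3.

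Other values moved with this order of mice in part. Mouse 1, the lowest, had the most read counts (19059432) and mouse 3, the highest, the fewest (13875116). Mice 2 and 5, which differed in these genes, had 14740045 and 14251699. Genes with any read numbered 19807, 19309, 18631 and 19653, and the TMM scaling factors of edgeR were 1.08, 0.977, 0.926 and 1.025. Both followed the order 1, 5, 2, 3 in reverse, from highest to lowest. B cell genes, summed to 797, 274, 669 and 802 TPM, were lowest in mouse 2, and the large peritoneal macrophage list summed to 17341, 20933, 19849.7 and 16415 TPM, so neither sum followed the order 1, 5, 2, 3. The second sum is carried mostly by *Thbs1*, and single markers behaved otherwise. *Gata6*, like *Fn1* and *Ccl24*, stood in the reverse order, highest in mouse 1 and lowest in mouse 3, and *Icam2*, *Alox15* and *Timd4* were also lowest in mouse 3. The part of depth or of cell composition in the interferon-related spread was not tested. Since all 20 were chosen by this spread, it is a description. The p-values given above concern only the difference between 2 genes within each of these 4 mice, and they cannot fall below 0.125.

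**Figure D5:**
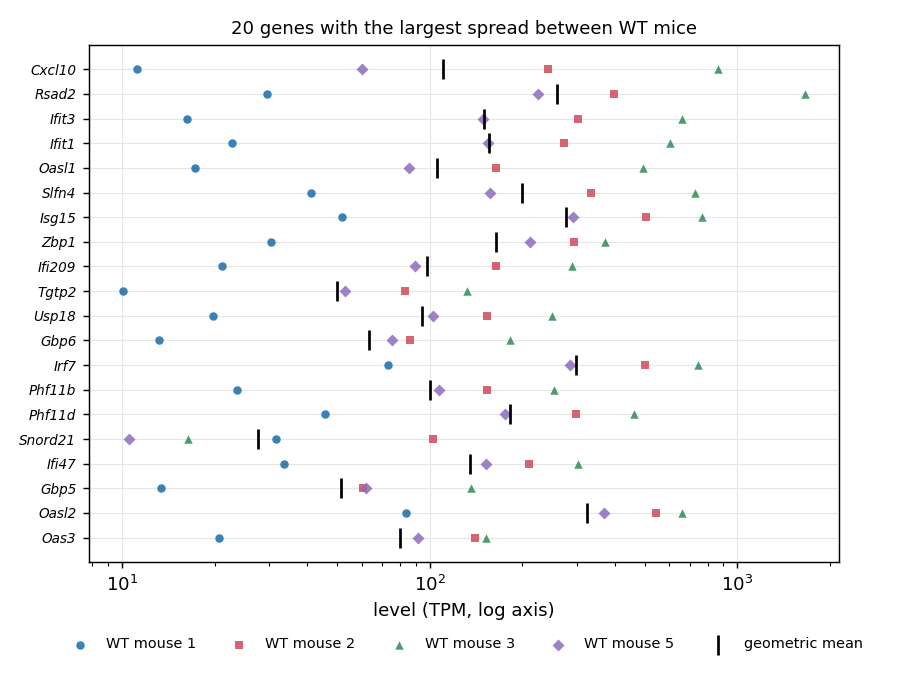
Level (TPM, log axis) of the 20 genes with the largest SD of log2(TPM + 1), with a coloured symbol for each mouse and the geometric mean as a black bar. They were taken from annotated genes at 10 TPM or more in all 4 WT mice, with pseudogenes left out. Mouse 1 is lowest and mouse 3 highest for 19 of the 20, with *Snord21* as the exception.

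The promoters of 4 of these genes are shown, all of which hold the motif marked below. *Irf7*, *Oasl2* and *Slfn4* stood in the same order of mice, and their windows held no match to it. Each is a RefSeq window (GRCm38.p6) of 300 bases, 250 before the start site and 50 after it, read along the gene's strand. Capitals mark the core of the interferon-stimulated response element, GAAANNGAAA on either strand, which IRF factors are known to bind. In *Cxcl10* (chr5:92348840-92349139, minus strand) the match begins 213 bases before the start site, and in *Rsad2* (chr12:26456403-26456702, minus strand) 120 bases before it. *Ifit1* (chr19:34640639-34640938, plus strand) has 2 matches, beginning 104 and 85 bases before it. *Isg15* (chr4:156200769-156201068, minus strand) has 3 overlapping matches, which begin 78, 72 and 66 bases before it and appear as 1 run of capitals.
Cxcl10: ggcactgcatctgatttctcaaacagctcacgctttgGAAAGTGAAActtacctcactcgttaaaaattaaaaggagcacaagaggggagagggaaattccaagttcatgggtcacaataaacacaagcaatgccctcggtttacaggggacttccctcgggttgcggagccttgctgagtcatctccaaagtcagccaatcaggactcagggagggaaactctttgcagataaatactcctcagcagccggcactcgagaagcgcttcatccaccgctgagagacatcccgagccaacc
Rsad2: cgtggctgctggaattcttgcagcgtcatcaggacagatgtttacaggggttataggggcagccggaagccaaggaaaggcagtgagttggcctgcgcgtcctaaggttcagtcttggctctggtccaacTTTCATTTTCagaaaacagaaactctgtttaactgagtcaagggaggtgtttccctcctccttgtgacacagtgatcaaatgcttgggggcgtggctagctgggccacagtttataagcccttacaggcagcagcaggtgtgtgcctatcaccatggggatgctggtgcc
Ifit1: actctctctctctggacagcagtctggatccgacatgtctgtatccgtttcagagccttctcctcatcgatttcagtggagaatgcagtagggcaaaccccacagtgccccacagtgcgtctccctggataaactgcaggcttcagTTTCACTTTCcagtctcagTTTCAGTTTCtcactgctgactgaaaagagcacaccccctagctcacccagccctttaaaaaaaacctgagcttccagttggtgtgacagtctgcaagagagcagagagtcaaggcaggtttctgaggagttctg
Isg15: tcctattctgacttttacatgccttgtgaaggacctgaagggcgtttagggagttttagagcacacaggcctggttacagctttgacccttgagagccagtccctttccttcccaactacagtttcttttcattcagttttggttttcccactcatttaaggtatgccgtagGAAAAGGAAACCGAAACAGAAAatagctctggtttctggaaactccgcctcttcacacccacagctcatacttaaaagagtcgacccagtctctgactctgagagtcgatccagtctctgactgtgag

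The response element core was found in 9 of the 16 windows held for the 20 most variable genes (56.3%), against 3.44% of all 32851 windows. Other motifs were also more frequent in these 16 windows than in all windows: the TATA box (TATAAA) in 43.8% against 13.6%, the GATA letters (AGATAA) in 43.8% against 11.2% and the AP-1 site (TGANTCA) in 37.5% against 7.81%. The ETS letters GAGGAA were in 37.5% against 28.3%, and the C/EBP (TTNNGCAA), NF-κB (GGGNNTTCC) and STAT (TTCNNNGAA) letters in 12.5% each, against 10.8%, 5.82% and 8.30%. The 9 windows with the response element belonged to *Cxcl10*, *Rsad2*, *Ifit1*, *Ifit3*, *Isg15*, *Gbp5*, *Oas3*, *Tgtp2* and *Phf11b*. It was in none of the 8 windows of the 10 most even genes and in none of the 15 windows of the large peritoneal macrophage list. Among windows of the 100 highest nuclear protein-coding genes it was in 9 of 85 (10.6%), among them those of *Saa3*, *B2m*, *Clec4d* and *Cybb*. The GATA letters were in 2 of the 15 windows of the large peritoneal macrophage list (13.3%). In all, 8 motifs were searched, and the search and the windows printed were chosen after the levels were seen. A match describes the letters in the window and is not evidence that a factor was bound there.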

How the data were processed

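Total RNA from pMacs of 4 WT mice was sequenced after poly(A) selection, on a short-read single-end run. Per the labels and methods, the authors trimmed reads with Cutadapt, aligned them with STAR 2.5.2a and estimated gene levels with RSEM 1.3.0 on GRCm38 (Ensembl). The authors deposited expected counts per library and gene, which RSEM divides among genes that share reads, and TPM, which divides them by effective length and scales each library to the same total. TPM was the scale for levels between genes, and expected counts, rounded to whole numbers, served for depth and dispersion. The deposited FPKM column and the 4 CD1d-deficient libraries were not used. Because TPM divides by length, short RNAs weigh more than on the count scale. Poly(A) selection limits what the levels of RNAs without a tail mean.

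Of 48795 gene identifiers, 48435 (99.3%) matched GENCODE M21 (GRCm38), which gave names, classes and positions. Detection required 1 TPM in all 4 libraries. Genes were ranked by geometric mean TPM, and spread was the SD of log2(TPM + 1), with a pseudocount of 1. Dispersion came from edgeR 4.0.16 (TMM factors, intercept only) and was tested on simulated data. Orders within 11 gene pairs used the exact two-sided sign-flip test over mice. Identity between transcripts came from blastn 2.17.0. Libraries held 13875116 to 19059432 expected counts, and floors cover counting error only.

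Genes named were all members of 23 lists, the 30 highest genes, the 20 most and 10 least variable with at least 10 TPM in every mouse, and 10 gene families. The ranking by spread left out pseudogenes and genes without a name in the annotation. The members and lists were chosen with earlier results of these data known. The promoter search, the promoters shown and the 4 nuclear copies of mitochondrial genes were chosen after seeing the data. Alternatives were other thresholds, scalings and pseudocounts, DESeq2 1.42.0 size factors, and leaving out each library. Results for a few listed genes are not reported here.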

Additional observations from a re-analysis of the deposited data

Results flagged for a closer look

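In 15 of 284 values checked, 1 mouse stood apart from the other 3 by more than Dixon's critical ratio for 4 samples. For independent, normally distributed values the rule flags about 1 in 20 groups. These values are TPM of genes that partly moved together, as the B cell genes did. That rate is therefore a rough guide only, and the number of flags was not tested. The 15 values were spread over all mice, with 4 in mouse 1, 4 in mouse 2, 2 in mouse 3 and 5 in mouse 5.

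Mouse 5 was high for *Timd4* (209 TPM, others 134 to 145 TPM). Mouse 5 was also high for the chemokine *Ccl22* (28.6 TPM, others 4.88 to 8.60 TPM), the homing receptor *Ccr7* of migratory dendritic cells (9.53 TPM, others 2.86 to 3.93 TPM), the mast cell chymase *Cma1* (6.88 TPM, others 2.22 to 2.71 TPM) and the T cell kinase *Lck* (4.96 TPM, others 3.42 to 3.68 TPM). Mouse 1 was high for the scavenger receptor *Cd36* (1523 TPM, others 876 to 974 TPM), for *Hprt* (123 TPM, others 68.6 to 76.3 TPM) and for *Rxra* (35.3 TPM, others 28.98 to 29.99 TPM), and low for *Rela* (88.8 TPM, others 97.7 to 98.7 TPM). Mouse 2 was low for the B cell genes *Igkc* (86.3 TPM, others 236 to 264 TPM) and *Ms4a1* (7.19 TPM, others 15.0 to 15.7 TPM), for *Mertk* (25.6 TPM, others 34.1 to 35.2 TPM) and for *Nr4a1* (12.2 TPM, others 20.5 to 22.2 TPM). Mouse 3 was high for the costimulatory *Cd86* (247 TPM, others 157 to 166 TPM) and for *Klf4* (13.9 TPM, others 6.63 to 7.56 TPM).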

How the results depend on the processing

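Of 344 values recomputed under an alternative, 320 stayed close to the reported value and 24 moved. Close means within 1 SD of the libraries or, for counts and spreads, within 1.5 times. Among summary values 60 stayed and 12 moved, and among values of single genes and lists 260 stayed and 12 moved. Summary values thus moved more often. By CPM, with no division by length, 324 genes held 50% of the total in place of 100, the 10 highest genes held 19.6% in place of 30.8%, and ribosomal protein genes held 2.60% in place of 6.93%. With protein-coding genes alone, 184 genes held 50%. Mitochondrial genes held 0.777% of expected counts and, with the 4 nuclear copies, 2.14% of TPM, in place of 1.17%. The number of genes with an SD above 1 was 71 with a pseudocount of 5, 621 over all genes with any count and 89 to 244 when 1 mouse was left out, in place of 162. The range of the 20 most variable genes was 3.35-fold to 16.0-fold when 1 mouse was left out. Of the 30 highest genes, 22 were shared with the 30 highest by CPM, and 30 with each list that left out 1 mouse. The cause of other differences was not tested. Detected members moved for the mast cell, eosinophil and erythroid lists, which sit near the threshold, with eosinophil markers at 0 to 3 of 6. For TMM, TPM was divided by each factor, the direction that matches effective library size. Marker levels in CPM are in another unit and were compared by rank only. With protein-coding genes alone, *Snord21* falls outside the 20 most variable genes. Depth limits statements on genes under about 0.383 TPM for a transcript of 1 kb, and at higher TPM for shorter ones such as *Snord21*. No paired analysis was possible because the results compare no groups.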

Other observations

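Several groups of listed genes were detected in WT pMacs and are given here as values for mice 1, 2, 3 and 5. Of the MiT/TFE factors, which drive lysosome genes, *Mitf* measured 141, 89.3, 119 and 117 TPM, *Tfe3* 131, 107, 91.7 and 106 TPM, *Tfec* 44.5, 50.3, 38.2 and 35.98 TPM and *Tfeb* 18.7, 10.9, 10.03 and 17.4 TPM. *Mitf* and *Tfe3* thus stood above *Tfeb* in every mouse. Among cytokine receptors, the shared β chain of the GM-CSF, IL-3 and IL-5 receptors (*Csf2rb*) measured 177, 267, 222 and 229.6 TPM and the GM-CSF receptor α chain (*Csf2ra*) 241, 147, 161 and 206 TPM. The interferon receptor chain *Ifnar1* measured 177, 160.3, 175 and 154 TPM, the interferon-γ receptor chain *Ifngr1* 91.98, 57.9, 46.9 and 61.1 TPM and the IL-10 receptor chain *Il10ra* 58.3, 60.5, 59.3 and 63.4 TPM. *Il10ra* was the most even of these, and *Ifnar1* did not follow the order of mice seen for interferon-responsive genes.

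CC chemokines other than *Ccl24* were also abundant. *Ccl9* measured 394, 457, 436 and 543 TPM, *Ccl6* 222, 230.1, 274 and 297 TPM, *Ccl3* 114, 198, 287 and 212 TPM and *Ccl5* 59.6, 267, 405 and 232 TPM. *Ccl5*, which attracts T cells, stood in the order of mice 1, 5, 2, 3 from lowest to highest, as *Irf1* did at 61.8, 132, 177 and 125 TPM and *Il18*, a cytokine of the IL-1 family, at 10.9, 29.2, 61.7 and 19.1 TPM. *Ccl9* and *Ccl6* were instead highest in mouse 5.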
